A study of Mus musculus with 2 samples.

Results

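Of the genes counted, 8 transcription factor genes of the branchiomeric muscle programme were followed. The members, taken by symbol out of 27998 listed genes and all found, were Tcf21, Msc, Lhx2, Tlx1, Pitx1, Myf5, Myod1 and Myf6. Their levels were read in cells with at least 1 unique molecular identifier (UMI, one counted RNA molecule) of Ebf1 together with at least 1 UMI of Tcf21 or Msc, called gated cells below, and in all other cells. Levels are in CPM, a gene's UMIs as a part of all UMIs of the same cells on the counts-per-million scale. Ebf1, Tcf21 and Msc chose these cells, so that their excess over the other cells is not a result.

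Both libraries came from E9.5 mouse embryos of the Swiss Webster strain. Cells were taken from the pharyngeal apparatus and heart, sorted as GFP-positive and DAPI-negative, and profiled with a droplet method that counts the 3′ ends of transcripts. The Ctrl group was Mesp1Cre;Rosa26-GFPflox/+ and the cKO group was Mesp1Cre;Rosa26-GFPflox/+;Tbx1flox/flox. Both therefore carried Cre driven from Mesp1, which acts in early mesoderm, and the GFP reporter that marks its descendants. The second group also had loxP sites on both copies of Tbx1. Embryos were pooled before sorting, 1 library was made for each group, and by the study's methods the cKO embryos had somewhat more somites, so that stage and genotype cannot be told apart. No difference below has a replicate check and no p-value is given. Intervals in parentheses are 95% intervals and cover counting error only.

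Branchiomeric muscles are the jaw, facial, pharyngeal and neck muscles that arise from the mesoderm cores of the pharyngeal arches. Unlike trunk muscle they do not depend on Pax3 for their onset. Upstream regulators such as Tbx1, Tcf21, Msc and Lhx2 act instead ahead of the myogenic regulatory factors Myf5 and Myod1, which commit cells to muscle, and of Myf6 and Myog, which act later. Tcf21 (capsulin) and Msc (MyoR) are related basic helix-loop-helix (bHLH) factors, Ebf1 is a helix-loop-helix factor of the EBF family, and Lhx2, Tlx1 and Pitx1 are homeodomain factors.

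The Ctrl library kept 6591 of 7418 cells after filtering and the cKO library 8969 of 10281, with medians of 16854 and 14192 UMIs per kept cell. The libraries had 15 barcodes in common, 12 of them in kept cells of both. Tbx1 (ENSMUSG00000009097; chromosome 16, 18580979 to 18590671), the targeted gene, went against the labels. It stood at 68.4 CPM in gated Ctrl cells (65.3 to 71.6) and at 89.2 in gated cKO cells (85.6 to 93.0), a log2 ratio of 0.38. In the other cells it stood at 14.0 and 34.4, a log2 ratio of 1.29, and over all kept cells the ratio was 0.75. A read at the 3′ end cannot say whether the Tbx1 transcript behind it was recombined. Each direction below is thus that of a library as labelled, cKO set against Ctrl, and not of a measured loss of Tbx1. The median log2 ratio over the 12023 genes with at least 30 UMIs in gated cells of either library was −0.15, and the ratios of single genes below are given without removing that shift.

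The gate held 1381 cells of the Ctrl library, 21.0% of its kept cells, and 1494 of the cKO library, 16.7%. The cKO share minus the Ctrl share was −4.30 percentage points (−5.54 to −3.05). After each cell was thinned to 5000 UMIs before the gate, which leaves out 71 and 99 shallower cells, the shares were 8.90% and 6.30%. The size of this difference hung on the gate genes. With Ebf1 and Msc alone, 375 Ctrl and 524 cKO cells, it was 0.15 points, too small to give a direction. In the Ctrl gate 1006 cells entered by Tcf21 alone, 59 by Msc alone and 316 by both, and in the cKO gate 970, 145 and 379. A single Ebf1 UMI placed 32.8% of gated Ctrl cells and 34.3% of gated cKO cells. A single UMI of Tcf21 or Msc placed 18.8% of gated Ctrl cells and 37.1% of gated cKO cells, so that the cKO gate held more cells at its edge. With Tcf21 and Msc both required, which leaves such cells out, the log2 ratio of the cKO over the Ctrl library was −4.54 for Lhx2, −4.22 for Myf5 and −1.43 for Tlx1.

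The gate was thus a wide range of cells and not a pure muscle population. Tbx1, Isl1, Ebf2, Ebf3 and Eya1, 5 branchiomeric muscle markers, were all measured, and their summed level was 314 CPM in gated Ctrl cells against 137 in the others. In the cKO library it was 220 against 134, with Isl1 and Ebf3 lower in gated than in other cells. Myocardial markers were lower in gated cells than in others, at 271 against 1352 CPM in the Ctrl library and 256 against 2072 in the cKO library. Endothelial markers stood at 35.1 and 21.7 in gated cells of the Ctrl and cKO libraries, posterior heart field markers at 172 and 133, and neural crest markers at 1.86 and 2.26. Of the endothelial markers, Kdr and Tie1 were at least 2-fold lower in the cKO library (log2 ratios −1.08 and −1.23) and Emcn was at least 2-fold higher (1.24). Epithelial markers summed to 48.6 and 66.8 through Krt8 and Krt18, while Epcam stood at 3.56 and 2.42 CPM and Cdh1 had 30 and 1 UMIs. Paraxial mesoderm markers summed to 44.4 in gated Ctrl and 84.4 in gated cKO cells through Meox1 alone, at 32.9 and 77.1, while Pax9 was lower in the cKO library (log2 ratio −1.35) and the intervals of Tcf15, Pax3 and Pax1 included 0. Erythroid markers summed to 0.557 and 2.89, mainly through Alas2 with 0 and 41 UMIs, which reached the minimum through the cKO library alone. The intervals of Gata1 and Klf1 included 0. The part of these markers in the results below was not tested. For the comparison of libraries below, cells that met the marker pairs of other cell types made up 13.2% of the Ctrl gate and 14.3% of the cKO gate, and each ratio was also taken without them.

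Tcf21 (ENSMUSG00000045680; chromosome 10, 22817263 to 22820143) and Msc (ENSMUSG00000025930; chromosome 1, 14753344 to 14756089) chose the cells, so their levels in the gate are a description. Tcf21 stood at 228 CPM in gated Ctrl cells (223 to 234) and 133 in gated cKO cells (128 to 137), a log2 ratio of −0.78 (−0.84 to −0.72). Msc stood at 31.0 (29.0 to 33.2) and 54.2 (51.3 to 57.1), a log2 ratio of 0.80 (0.68 to 0.93). Outside the gate both were lower in the cKO library, Tcf21 at 52.4 and 37.0 and Msc at 8.52 and 6.60 CPM. Over all kept cells, with no gate, the Tcf21 level was 92.7 CPM in the Ctrl and 54.7 in the cKO library (log2 ratio −0.76, −0.80 to −0.72), and the Msc level was 13.7 and 15.4 (log2 ratio 0.17, 0.08 to 0.26). The difference in Msc was thus far smaller without the gate. Among all 12023 genes, ranked from the lowest log2 ratio, Tcf21 was number 1109 and Msc number 11790. Neither passed a fold of 2.

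Lhx2 (ENSMUSG00000000247; chromosome 2, 38339271 to 38369737), a LIM homeodomain factor active in arch mesoderm and in many other organs, differed far more than either. In gated Ctrl cells it stood at 138 CPM (134 to 143; 3723 UMIs), and in gated cKO cells at 13.8 (12.4 to 15.3; 348 UMIs). That is a 10.0-fold lower level (8.98 to 11.2), a log2 ratio of −3.33. Outside the gate the Lhx2 level was 21.5 CPM in the Ctrl and 24.5 CPM in the cKO library (log2 ratio 0.19, 0.10 to 0.27). Summed over all cells outside the gate, Lhx2 was thus not lower in the cKO library. Within the Ctrl library Lhx2 was 6.43-fold higher in gated than in other cells, and within the cKO library it was 1.77-fold lower there (1.59 to 1.99). Gated cells held 65.7% of all Lhx2 UMIs of the Ctrl library.

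Tlx1 (ENSMUSG00000025215; chromosome 19, 45150092 to 45156943), a homeodomain factor known for its role in spleen formation, followed the same direction with a smaller step. It stood at 56.3 CPM in gated Ctrl cells (53.5 to 59.2) and 17.2 in gated cKO cells (15.6 to 18.9), a log2 ratio of −1.71 (−1.87 to −1.55). In the other cells it stood at 12.4 and 10.6, a log2 ratio of −0.23. Over all kept cells it stood at 22.5 and 11.8, a log2 ratio of −0.93 (−1.02 to −0.84), which did not pass a fold of 2. Pitx1 (ENSMUSG00000021506; chromosome 13, 55825044 to 55836190), which patterns the first arch and the hindlimb, was nearly undetected in the gate. Its 12 UMIs in gated Ctrl cells and 22 in gated cKO cells came to 0.445 (0.230 to 0.778) and 0.871 (0.546 to 1.32) CPM, and these intervals overlap. Its level in other cells was 1.09 and 1.07, and it was not higher in the gate in either library.

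Myf5 (ENSMUSG00000000435; chromosome 10, 107482908 to 107486927), the earliest myogenic regulatory factor, showed the steepest difference of the 8. Its 503 UMIs in gated Ctrl cells came to 18.7 CPM (17.1 to 20.4) and its 13 UMIs in gated cKO cells to 0.515 (0.274 to 0.880). The level was 36.3-fold lower (21.0 to 68.6), a log2 ratio of −5.18 (−6.10 to −4.39). Unlike Lhx2, it was also lower in the other cells, at 2.52 and 0.314 CPM, which is 8.02-fold lower (5.60 to 11.8).

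Myf6 (ENSMUSG00000035923; chromosome 10, 107492848 to 107494723), which lies 5920 bases from Myf5 and acts in later muscle, was close to the limit of detection. It had 18 UMIs in gated Ctrl cells, 0.668 CPM, and 2 in gated cKO cells, 0.0792, a log2 ratio of −3.08 with a wide interval (−6.23 to −1.01). Myod1 (ENSMUSG00000009471; chromosome 7, 46376474 to 46379092), the factor that follows Myf5 in muscle commitment, was as rare but did not share this direction. Its 11 UMIs in gated Ctrl cells and 12 in gated cKO cells came to 0.408 (0.204 to 0.730) and 0.475 (0.246 to 0.830) CPM. A difference in Myod1 was not detectable at this depth, since the log2 ratio of 0.22 had an interval from −1.09 to 1.54. Nearly all of it lay inside the gate, with 1 UMI in the other cells of the Ctrl library and 2 in those of the cKO library.

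**Figure D1:**
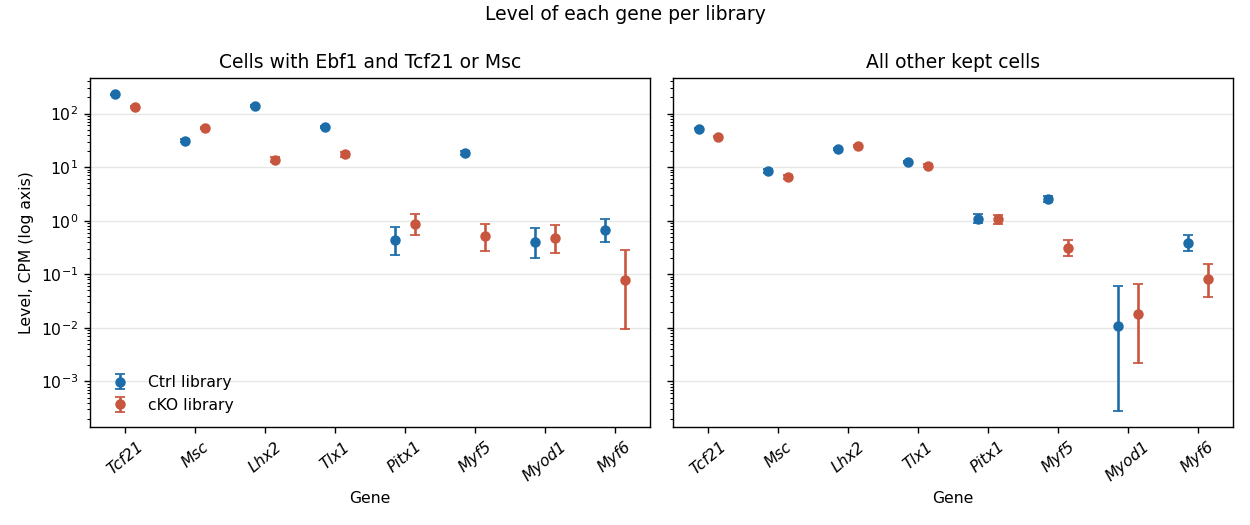
Level of each gene in CPM (log axis) in the gated cells (left) and in all other kept cells (right), by library; points are sums over 1 library each and bars are exact Poisson 95% intervals. Lhx2, Tlx1 and Myf5 stand far apart between the libraries in gated cells, with Lhx2 at 138 and 13.8, whereas in the other cells Lhx2 and Tlx1 lie close together and Myf5 and Myf6 do not.

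Read against all genes, 5 of the 8 members had at least 30 UMIs in gated cells of either library, and 3 of these 5 (Lhx2, Tlx1 and Myf5) were at least 2-fold lower in the cKO library. The same was true of 623 of 12023 genes, or 5.18%. Myf5 reached the minimum through the Ctrl library alone, so its place in the count is a description. Tcf21 and Msc, the rest of these 5, helped to choose the cells. Their place in this count and in those that follow is a description too. None of the 5 was at least 2-fold higher, as were 1.36% of all genes. With a minimum of 10 UMIs all 8 members were covered and 4 were at least 2-fold lower, the same 3 and Myf6, against 7.48% of 13766 genes, and Myf6 entered through its 18 Ctrl UMIs alone. At a fold of 4, Lhx2 and Myf5 remained, against 1.16% of all genes. From the lowest log2 ratio, Myf5 was number 10, Lhx2 number 42 and Tlx1 number 200. In the other cells 7 members reached 30 UMIs and 2 of them, Myf5 and Myf6, were at least 2-fold lower, against 3.42% of 14118 genes. Myf6 reached that minimum through the Ctrl library alone, with 35 and 9 UMIs, and 4 Myog-positive cells held 24 of the 35, so that its call rests on those cells. None was at least 2-fold higher there, against 1.75%. Among members with at least 30 UMIs that did not choose the cells, Lhx2, Myf5 and Tlx1 were at least 2-fold higher in gated than in other Ctrl cells, which 2.16% of genes were. In the cKO library none of these was, against 1.52% of genes. Myod1 was below that minimum in both libraries.

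Lhx2, Tlx1 and Myf5 kept this direction in each of 14 alternatives tried for each, among them another gate, another filter, thinning and another scaling. The log2 ratio ranged from −4.83 to −1.37 for Lhx2, from −2.50 to −0.53 for Tlx1 and from −6.28 to −3.03 for Myf5. All 14 were read in gated cells, and the ratios over all kept cells are those given above. Cells with Xist UMIs and cells with Y-linked UMIs come from different embryos, and read apart they gave −3.19 and −4.13 for Lhx2, −6.09 and −3.91 for Myf5 and −2.45 and −1.24 for Tlx1. Msc stood at 1.17 and 0.37 in the same order. Without cells that met the marker pairs of other cell types, the log2 ratio was −3.49 for Lhx2, −5.26 for Myf5, −1.72 for Tlx1 and 0.97 for Msc.

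Promoter sequence from RefSeq (GRCm38.p6) was at hand for 4 of the 8 members, Tcf21, Myf5, Tlx1 and Lhx2, the last with a pair of starts. The 250 bases before each start were searched on both strands for 3 motifs, the E-box CANNTG that bHLH factors such as Msc, Tcf21 and Myf5 bind, the T-box core GTGTGA and the homeodomain core TAATTA. They are shown because Lhx2, Tlx1 and Myf5 were lower together. An E-box was found in Tlx1 alone of these, 188 bases before the start used, and in 66.2% of all 32851 promoters. A T-box core was found in Myf5 alone, 228 bases before the start used, and in 12.3% of all promoters. TAATTA was in none of the 5 and in 4.84% of all. Both of these starts lie inside the gene ranges given above, downstream of the outermost start, so that the matches lie within the annotated genes. A match is a description of the letters and not a binding site. Capitals mark the motif, 5′ to 3′ on the strand of the gene.
Tlx1, chr19:45150515-45150544, plus strand: ctctggctccggCATCTGtctgggctcctg
Myf5, chr10:107486345-107486374, minus strand: gattatgttaaaGTGTGAtcaatttcaaga

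Shares of positive cells had the same directions as the sums. A Lhx2 UMI was found in 508 of 1381 gated Ctrl cells, 36.8% (34.2 to 39.4), and in 129 of 1494 gated cKO cells, 8.63%. After thinning the gated cells to 5000 UMIs the shares were 27.7% (25.4 to 30.2) and 4.10% (3.15 to 5.24). For Myf5 they were 17.5% and 0.736% as deposited and 6.62% and 0.336% when thinned. For Tlx1 they were 21.1% and 12.2%, and 14.4% and 5.71% when thinned, and for Msc 27.2% and 35.1%, and 12.4% and 19.2% when thinned. Gated cells had medians of 18459 and 15452 UMIs. Endothelial cells, taken as those with Cdh5 and Kdr outside the gate, should lack these factors and gave the background for members outside the gate rule. There, Lhx2 was found in 0.382% of 262 Ctrl cells and 0.840% of 238 cKO cells, Msc in 0.382% and 0%, Tlx1 in 3.82% and 2.52%, and Myf5 in none of either, at medians of 16358 and 14135.5 UMIs. Ebf1 was found in 66.4% and 56.7% of these cells, and any such cell with Msc as well fell in the gate. The Msc shares are thus held down by the rule and give no background for Msc. The shares of Pitx1 in gated cells, 0.579% and 1.20%, were not clear of its background of 0.382% and 0.420%.

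Lhx2-positive Ctrl cells were also strongly positive. In the Ctrl gate 298 cells had at least 5 Lhx2 UMIs and the highest had 33, and in the cKO gate 21 cells did and the highest had 20. For Tlx1 the numbers with at least 5 UMIs were 134 and 21, for Myf5 20 and 0, and for Msc 31 and 84. Tcf21 reached 5 UMIs in 503 gated Ctrl cells and 172 gated cKO cells.

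Lhx2, Tlx1 and Myf5 were often detected in the same cells of the Ctrl gate. Of 241 Myf5-positive cells, 222 had Lhx2, 92.1% (87.96 to 95.19), and of 508 Lhx2-positive cells the same 222 had Myf5, 43.7% (39.3 to 48.1). These shares differ because fewer cells were positive for Myf5, the gene with fewer UMIs, and a cell with Lhx2 alone may hold undetected Myf5. Of 292 Tlx1-positive cells 78.1% had Lhx2 and 46.6% had Myf5, and of Lhx2-positive cells 44.9% had Tlx1. Among cells without Lhx2, Myf5 was found in 2.18% and Tlx1 in 7.33%. Myf5 and Tlx1 were thus found mostly where Lhx2 was detected. Tcf21 was present in 99.2% of Lhx2-positive and 99.2% of Myf5-positive cells, against 93.7% of cells without Lhx2, which the gate keeps high. Msc, which chose cells too, was present in 38.8% of Lhx2-positive and 20.4% of Lhx2-negative cells, and after thinning in 16.3% (12.7 to 20.4) and 10.9% (8.998 to 12.97). After thinning Lhx2 was found in 81.3% of Myf5-positive cells (71.8 to 88.7) and 23.9% of Myf5-negative cells (21.6 to 26.3), and Myf5 in 19.4% of Lhx2-positive cells (15.6 to 23.8) and 1.71% of Lhx2-negative cells (0.999 to 2.72).

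In the cKO gate Myf5 and Tlx1 were not found more often with Lhx2. Of 129 Lhx2-positive cells 1 had Myf5, 0.775% (0.0196 to 4.24), and Myf5 was found in 0.733% of cells without Lhx2. Tlx1 was found in 10.9% of Lhx2-positive cells and 12.3% of the others, and Lhx2 in 7.69% of Tlx1-positive cells and 8.77% of Tlx1-negative cells. Of the 11 Myf5-positive cells, 1 had Lhx2, 5 had Tlx1 and 8 had Msc. Of 182 Tlx1-positive cells, 45.6% had Msc (38.2 to 53.1) against 33.6% of Tlx1-negative cells, and after thinning 29.4% (20.02 to 40.29) and 18.5% (16.5 to 20.7), intervals that overlap. Msc helped to choose these cells as well. Pitx1 was found in 7 of 129 Lhx2-positive cells, 5.43% (2.21 to 10.9), and in 0.806% of the others (0.403 to 1.44), and after thinning in 5 of 61 and 1 of 1427. In the Ctrl gate it was found in 1 of 508 Lhx2-positive cells.

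**Figure D2:**
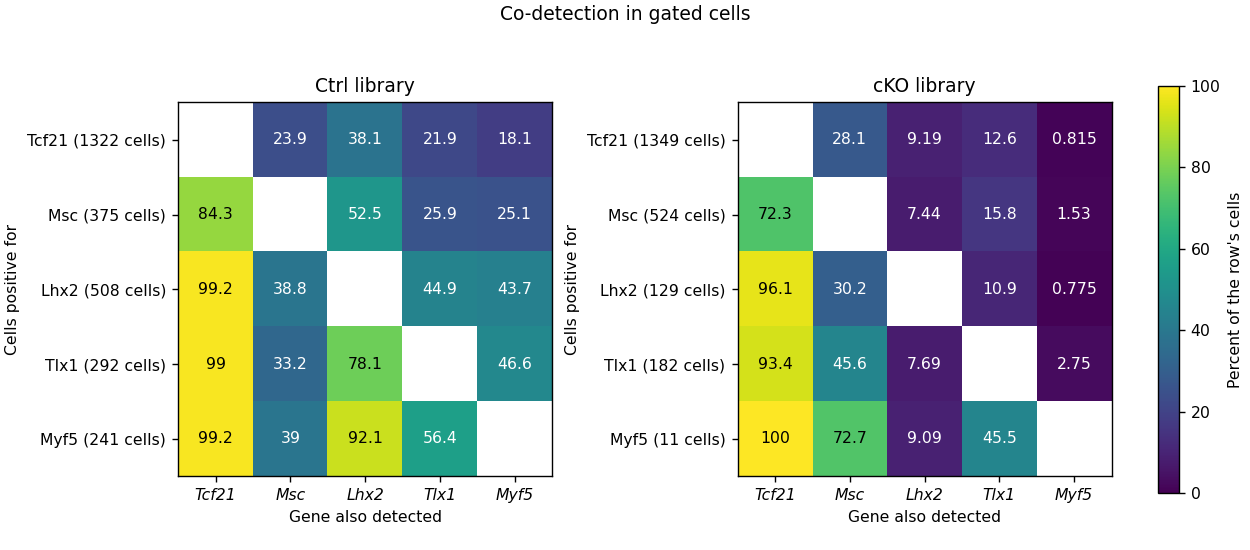
Percent of gated cells positive for the gene of the row that were also positive for the gene of the column, in the Ctrl library (left) and the cKO library (right), counts as deposited, with the number of row cells in parentheses. In the Ctrl library 92.1% of Myf5-positive cells had Lhx2, and in the cKO library 1 of 11 did.

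Taken over Lhx2, Tlx1 and Myf5, all 3 were detected in 127 gated Ctrl cells, 9.20% (7.72 to 10.8), and in 0 of 1494 gated cKO cells. A count of 0 allows a share of up to 0.247% of cells with all 3 detected, and sets no limit on cells that express them below detection. Lhx2 without the other two was found in 13.4% of gated Ctrl cells and 7.63% of gated cKO cells. Tlx1 without the other two was found in 3.98% (3.01 to 5.15) and 10.9% (9.37 to 12.6), while Tlx1 in all was found in 21.1% and 12.2%. The class of Tlx1 alone depends on the detection of Lhx2 and Myf5, so it is not a result about Tlx1 by itself. After thinning these shares of Tlx1 alone were 4.65% (3.60 to 5.91) and 5.65% (4.53 to 6.94), and at equal depth these intervals overlap. None of the 6 members outside the gate rule was detected in 788 gated Ctrl cells, 57.1%, and in 1172 gated cKO cells, 78.4%.

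**Figure D3:**
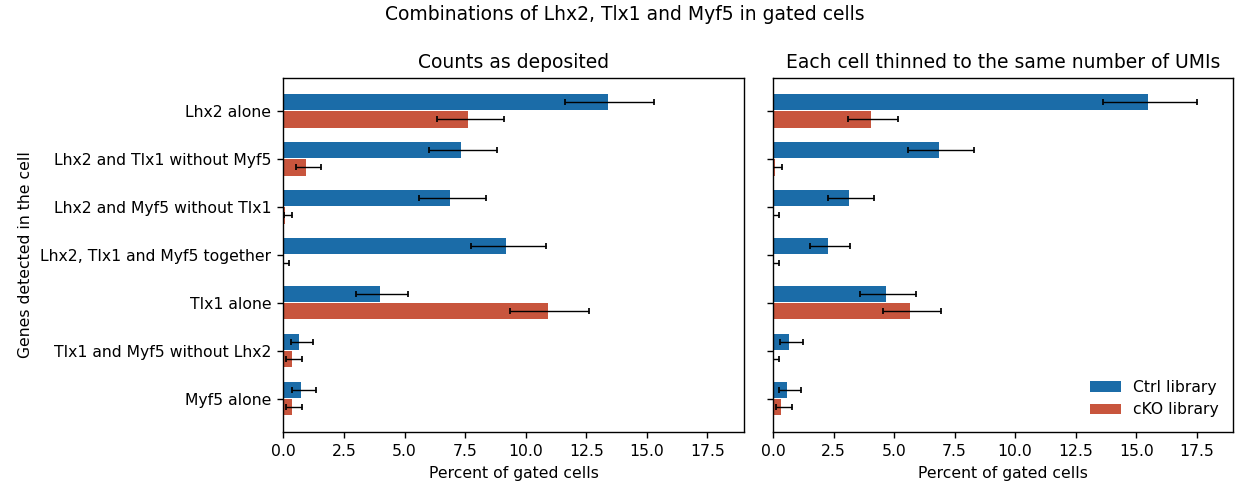
Percent of gated cells with each combination of Lhx2, Tlx1 and Myf5, counts as deposited (left) and after thinning (right); alone means without the other two genes, bars start at 0 and lines are exact 95% intervals. Combinations with Lhx2 are longer in the Ctrl library, and all 3 together are found in 9.20% of its gated cells and in none of the cKO library.

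Detection of Hox genes split the gate. Position along the body axis was not measured, and a cell without a Hox UMI may hold undetected Hox transcripts. Hox genes of the anterior groups are off in the first arch and on behind it. Of 8 such genes (Hoxa2, Hoxa3, Hoxb1, Hoxb2, Hoxb3, Hoxb4, Hoxd3 and Hoxd4), none was detected in 444 gated Ctrl cells (32.2%) and 521 gated cKO cells (34.9%), at median depths of 18459 and 14920 UMIs. In these Hox-negative cells Lhx2 stood at 338 CPM (326 to 351) in the Ctrl library and 8.36 (6.49 to 10.6) in the cKO library. Myf5 stood at 47.3 (42.8 to 52.2) and 1.35 (0.675 to 2.42), and Tlx1 at 130.0 (122 to 138) and 31.2 (27.5 to 35.3). Msc was higher in the cKO library, at 114 (107 to 122) against 47.4 (42.9 to 52.3). Among Hox-negative Ctrl cells 77.9% had Lhx2, 41.2% Myf5 and 43.2% Tlx1, and among Hox-negative cKO cells 9.40%, 1.73% and 17.3%.

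Within the Ctrl library all of these levels were lower in gated cells with a Hox UMI, with Lhx2 at 46.3 CPM (43.2 to 49.5), Tlx1 at 22.5, Myf5 at 5.52 and Msc at 23.5. The same cells of the cKO library had 16.4 (14.5 to 18.4), 10.6, 0.117 and 25.7. Msc helped to choose these cells, and its values by Hox detection are a description. In Hox-positive cells its intervals overlapped (21.3 to 25.8 and 23.3 to 28.2). In the cKO library the Lhx2 level was lower in Hox-negative than in Hox-positive gated cells, but its share of positive cells was not, at 9.40% (7.04 to 12.2) and 8.22% (6.57 to 10.1).

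**Figure D4:**
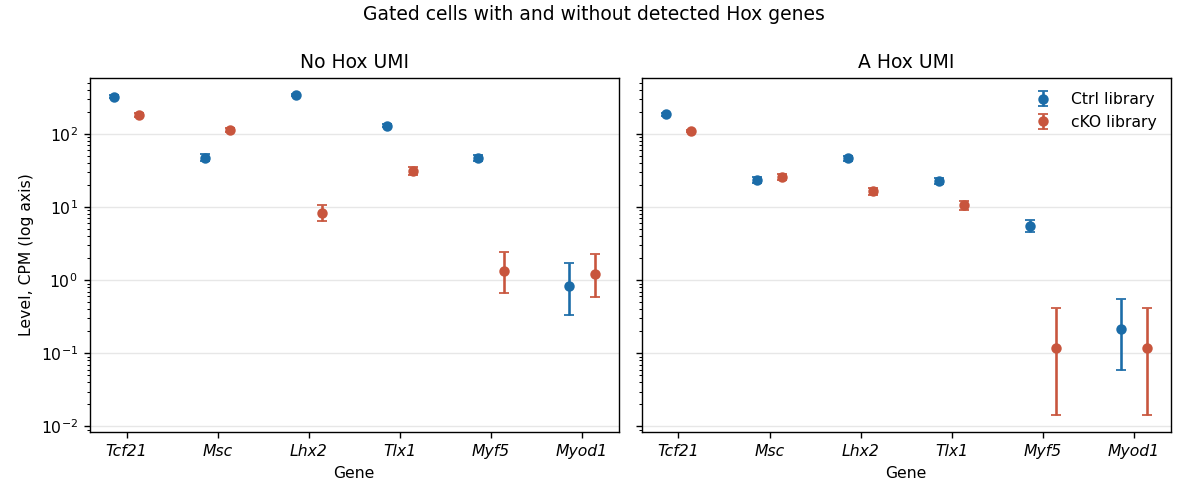
Levels of 6 members in CPM (log axis) in gated cells with no Hox UMI (left) and with a Hox UMI (right), by library; bars are exact Poisson 95% intervals. Lhx2 reaches 338 in Hox-negative Ctrl cells against 8.36 in Hox-negative cKO cells, and Msc is higher in the cKO library in the left panel and close together in the right one.

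Tbx1 detection split the gate as well. Gated Ctrl cells with a Tbx1 UMI had Lhx2 at 196 CPM (189 to 203), and those without at 57.5 (53.1 to 62.1). In gated cKO cells the level was 6.88 (5.57 to 8.40) in Tbx1-positive cells and 22.3 (19.6 to 25.2) in Tbx1-negative cells, but the shares of Lhx2-positive cells overlapped, at 7.42% (5.68 to 9.48) and 9.97% (7.87 to 12.4). Myf5 stood at 27.8 and 5.79 in Tbx1-positive and Tbx1-negative Ctrl cells and at 0.358 (0.116 to 0.836) and 0.708 (0.306 to 1.40) in the cKO cells, which overlap. Msc did not divide this way, at 29.2 and 33.6 in the Ctrl library and 57.1 and 50.5 in the cKO library. The log2 ratio between the libraries was −4.83 for Lhx2 in Tbx1-positive gated cells and −1.37 in Tbx1-negative ones, and for Tlx1 it was −2.42 and −0.53. Tbx1-positive cells were somewhat deeper, with medians of 19422 and 16105.5 UMIs against 17456 and 14734.5.

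Outside the gate the members divided by cell type. Lhx2 stood at 54.4 CPM in Ctrl cells with Upk3b and Wt1, markers of the epicardium and its precursors, and at 59.9 in cKO cells, a log2 ratio of 0.14 (−0.18 to 0.46). It stood at 33.0 and 38.2 in cells that met none of the comparison markers, and at 6.65 and 15.0 in cells with Tnnt2 and Myl4, markers of heart muscle. In Tbx1-positive cells outside the gate it was lower in the cKO library, at 12.5 and 5.85, a log2 ratio of −1.09 (−1.41 to −0.77). This group held 863 Ctrl and 1646 cKO cells, with Ebf1 in 34.6% and 55.0% of them. By the gate rule those with Ebf1 lack Tcf21 and Msc UMIs, so the groups are not alike. The part of this in the difference was not tested. Tlx1 was lower in the same Tbx1-positive cells, at 27.7 and 12.5, and in heart muscle cells, at 12.3 and 1.15, but stood at 12.9 and 14.2 in cells of no comparison group. Msc was present in cells with Osr1 and Wnt2, markers of the posterior heart field, at 27.0 and 17.7, a log2 ratio of −0.61. Cells of this pair with both Msc and Ebf1 were in the gate by its rule, so these Msc levels are a description. Cells with Alx1 and Cyp26c1, meant for cranial mesenchyme, numbered 2 and 1 and gave no level.

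Myf5 had a second site. In cells with Tcf15 and Meox1, markers of paraxial mesoderm from which trunk muscle comes, it stood at 15.5 CPM in the Ctrl library (147 UMIs) and 2.82 in the cKO library (20 UMIs), a log2 ratio of −2.46 (−3.21 to −1.78). Of 85 Myf5-positive Ctrl cells outside the gate, 50 had Meox1 and 43 had Pax3, and 19 had Lhx2. In the cKO library 29 cells outside the gate had Myf5, and 16 of them had Meox1. How many somites each dissection took in is not given in the sources used here, and its part in this difference was not tested. Myog, the later myogenic factor, had 123 UMIs in 8 Ctrl cells outside the gate, 52 of them in a single cell, 3 UMIs in 3 cKO cells outside the gate, and 1 and 0 UMIs inside the gate of the Ctrl and cKO libraries.

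**Figure D5:**
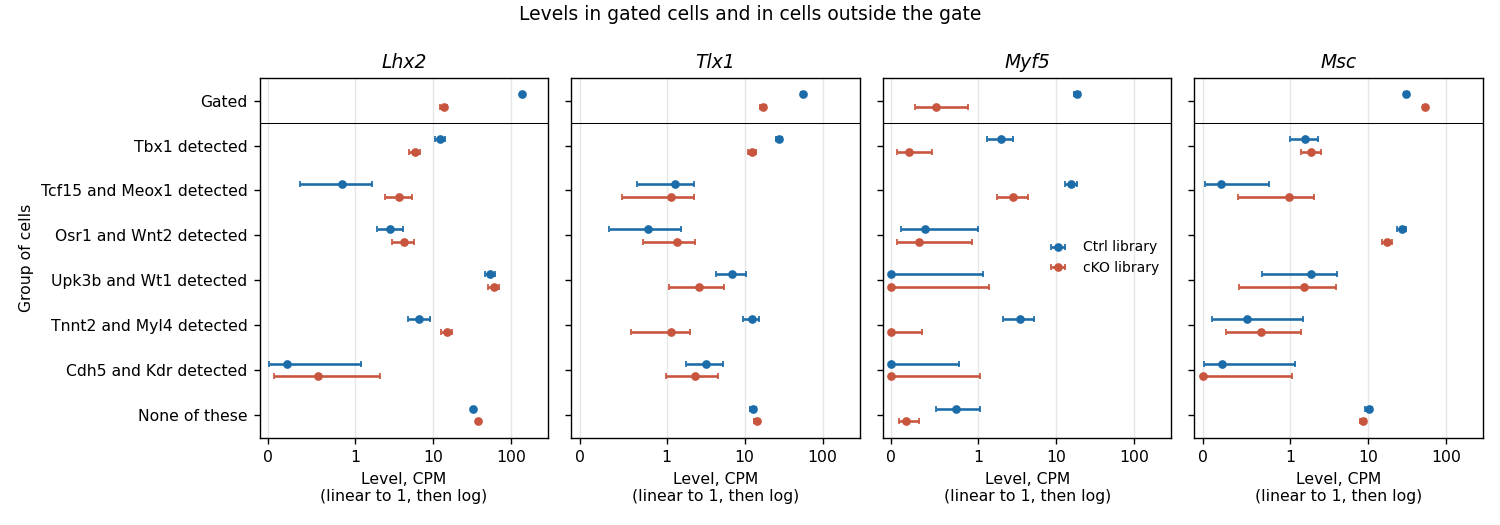
Levels of Lhx2, Tlx1, Myf5 and Msc in CPM (linear to 1, then log) in gated cells and, below the line, in groups of cells outside the gate that hold the named markers; bars are exact Poisson 95% intervals and the groups overlap in part. Lhx2 in cells with Upk3b and Wt1 is alike in both libraries, at 54.4 and 59.9, and Myf5 in cells with Tcf15 and Meox1 is lower in the cKO library, at 15.5 and 2.82.

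The positive cells themselves were spread differently. Of 1078 Lhx2-positive Ctrl cells 47.1% (44.1 to 50.2) were gated, and of 1014 Lhx2-positive cKO cells 12.7% (10.7 to 14.9). In cells with Tcf21 or Msc but without Ebf1 the Lhx2 level was 40.02 CPM (37.98 to 42.14) in the Ctrl and 44.2 (42.0 to 46.4) in the cKO library, and these cells made up 33.1% and 44.9% of all Lhx2-positive cells. Of 326 Myf5-positive Ctrl cells 73.9% were gated, and of 40 in the cKO library 27.5% (14.6 to 43.9). Myod1 stayed with the gate in both, in 10 of 11 positive Ctrl cells and 12 of 14 positive cKO cells.

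Other regulators of head muscle did not move as one. Of 10 (Tbx1, Isl1, Ebf2, Ebf3, Six2, Six4, Eya1, Eya4, Dach1 and Mef2c), all were measured in gated cells, 3 were at least 2-fold lower in the cKO library and 0 were at least 2-fold higher, beside 5.18% and 1.36% of all genes. Those lower were Ebf3, with a log2 ratio of −1.86, Isl1, a LIM homeodomain factor of second heart field and arch muscle precursors, with −1.65, and Eya4, a transcriptional cofactor, with −1.38. Six2, a homeodomain factor, stood at −0.83 and Tbx1 at 0.38. The median over the 10 was −0.72, beside −0.15 over all genes.

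Of 8 genes of trunk and limb muscle progenitors, 5 were measured in gated cells, none was 2-fold lower and 1, Meox1, was higher, at 32.9 and 77.1 CPM (log2 ratio 1.23), beside the same 5.18% and 1.36% of all genes. Pax3, the trunk regulator, was near its limit there with 30 and 16 UMIs. Meox2, Met and Pax3 had log2 ratios of −0.90, −0.84 and −0.81. The median over the 5, −0.81, is the value of Pax3 itself, which reached the minimum through the Ctrl library alone and has an interval that includes 0 (−1.79 to 0.11). Of 15 muscle differentiation genes in the files, 6 were measured and 1, Ttn, was at least 2-fold lower (5.18% of all genes), with a log2 ratio of −1.22. Des stood at 0.66, Tnnt1 at −0.53 and Acta1 at −0.03, and the median was −0.03. None of the 11 bHLH partners and inhibitors passed a fold of 2 in either direction, as 5.18% of all genes did downwards and 1.36% upwards. Twist1, an inhibitor of myogenic factors, stood at 0.72, Tcf4, an E protein that pairs with them, at −0.77, Hey1 at −0.71 and Id1 at 0.60, and the median was −0.09. Of 8 close relatives of the members only Lhx9, the nearest relative of Lhx2, was measured, at 11.8 and 7.37 CPM (log2 ratio −0.68).

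Genes with a pattern like that of a member were sought over gated cells and 7 groups of other cells in both libraries, 16 points that share libraries and some cells, on the scale log2(CPM + 5). They are given as a description. For Lhx2 these were Kcnd3, Fgf9 and Lhfpl3 (r of 0.88, 0.87 and 0.87), and Fgf9, a fibroblast growth factor, stood at 7.42 and 0.594 CPM in gated Ctrl and cKO cells. For Tlx1 the first was Kazald1 (r of 0.97), which lies 70802 bases from it on chromosome 19 and stood at 22.6 and 8.95 in the gate, followed by Irx3os and Sel1l3 (both 0.88). For Myf5 they were Kirrel3, Lrrn1 and Sorcs3 (0.91, 0.86 and 0.86), of which Lrrn1 stood at 31.9 and 3.53 in the gate. For Msc they were Barx2, Gm9947 and Gjb2 (0.97, 0.91 and 0.90), and Barx2, a homeodomain factor with a role in muscle, stood at 3.67 and 4.67. For Tcf21 they were Dnah7a, Npnt and B630019K06Rik (0.95, 0.91 and 0.91).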

How the data were processed

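Single-cell RNA was measured in 1 Ctrl and 1 cKO library. The authors aligned reads to mm10 and counted UMIs with Cell Ranger (3.1.0, per the labels), and the deposited values are raw counts of UMIs per gene and cell barcode, without normalization or a further filter.

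Barcodes under 1000 detected genes or over 10% mitochondrial UMIs were dropped. The highest Scrublet scores (scanpy 1.11.5) were then removed as doublets at 0.8% per 1000 recovered cells, 416 and 804 cells. Sums over cells were divided by all UMIs of those cells (CPM), with exact Poisson intervals, exact conditional intervals for ratios and Clopper-Pearson intervals for shares, at 95%. A zero allows 3 counts, 0.111 and 0.119 CPM in the gated Ctrl and cKO cells. In counts of genes past a fold, genes needed 30 UMIs in either library, and a zero was replaced by 0.5 UMIs. Thinning drew 5000 UMIs per cell with a fixed seed. With 1 library per group no test was run. The calculation was tested on simulated data.

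The members and the gene lists were chosen with earlier results of these data known. Named genes were the members, Tbx1, Ebf1, up to 4 measured genes of each list with the largest absolute log2 ratio, and the 3 genes most like each member with at least 100 UMIs. For likeness, groups under 20 cells were left out, a choice made after the data were seen. Coordinates are those of RefSeq, GRCm38.p6, for 8 of 8 members. Some genes of these lists, and 1 planned gate, are not reported here, and the lists and sums were recomputed without them. Alternatives covered cell filters, thinning, gate genes, sex-linked transcripts, cell weights, scaling and thresholds.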

Additional observations from a re-analysis of the deposited data

How the results depend on the processing

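Of 315 values recomputed under alternatives, 186 stayed within their counting interval or 1.5 times, 128 moved beyond it and 1 value whose interval left out 0 changed sign. Values of Pitx1, Myod1 and Myf6 whose intervals included 0 took both signs. The difference in gated share (−4.30 points) was −2.59 when cells were thinned before the gate, −0.57 with Tcf21 and Msc both required, −5.93 in Xist-positive and −2.11 in Y-positive cells, and 0.15 with Ebf1 and Msc, close to 0. The share of Lhx2-positive Ctrl cells with Myf5 (43.7%) was 22.0% when cells were thinned before the gate, 19.4% when gated cells were thinned, 37.4% in Y-positive cells, 49.0% with Tbx1 and 26.7% without it. The cKO share (0.775%) was 0 under both thinnings, in Xist-positive cells and without Tbx1. The number of members at least 2-fold lower was 3, or 2 in gated cells without Tbx1, where Tlx1 stood at −0.53, and 2 at a fold of 4. With no minimum of UMIs 10.5% of genes were at least 2-fold lower. Tcf21 was lower (−0.96 to −0.46) and Msc higher (0.37 to 1.17) in all 14 alternatives tried for each, Myf6 lower in the 12 that gave a value, and between the libraries Pitx1 ranged from −0.24 to 2.16 and Myod1 from −0.53 to 0.64. All of these were read in gated cells, which Tcf21 and Msc helped to choose, so the ranges of both are a description. Over all kept cells the log2 ratio was −0.76 for Tcf21 and 0.17 for Msc, the latter outside its range. The subsets by comparison groups and by Tbx1 were added after the data were seen. No paired analysis was possible because each group has 1 library, and leaving out a library was not possible either. The causes of these shifts were not tested.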

Other observations

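Myod1-positive gated cells were few, and they were looked at after their values had been seen. The Ctrl gate had 10, of which 8 had Lhx2, 4 had Myf5, 6 had Msc and 8 had Tbx1. The cKO gate had 12, of which 1 had Lhx2, 0 had Myf5, 10 had Msc and 10 had Tbx1. None of either had Pax3 or Myog. Their median depths were 24478 and 16323 UMIs.

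Myf6 outside the Ctrl gate had 35 UMIs in 15 cells, of which 4 also had Myog and held 24 of those UMIs, and 1 had Lhx2.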
